A study of Homo sapiens with 12 samples.

Results

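Antiviral restriction factors are host proteins that block a step of viral replication inside an infected cell. Here 10 of them, taken by gene symbol from a table of 43769 genes, are described in RNA-seq libraries of SK-N-DZ cells: MX1, MX2, BST2, RSAD2, SAMHD1, ISG20, TRIM22, TRIM5, APOBEC3F and APOBEC3G. Each of the 10 symbols matched 1 row of the table. SK-N-DZ is a human neuroblastoma (NB) line with amplified MYCN. The cells were a clone carrying a doxycycline-inducible hairpin against ARID1A, a subunit of the SWI/SNF chromatin remodeler (shARID1A). The 12 libraries fell into 4 groups of 3: untreated control cells (C), cells given doxycycline (D), cells given interferon gamma (I), and cells given both (DI). Doxycycline was present for 4 days in D and DI, and interferon gamma (IFNγ) for 24 h in I and DI. All 4 groups carried the hairpin construct, which C and I received no doxycycline to induce. Because no library received doxycycline without the hairpin, and 1 line was used, effects of the drug, the hairpin and the clone cannot be told apart. The 3 numbered libraries of a group were not said to be separate cultures, so the p-values measure the spread between these libraries, which may be technical.

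IFNγ binds its receptor and activates the kinases JAK1 and JAK2. The signal acts through gamma-activated sites in DNA and induces the factor IRF1, and IRF1 and related factors bind interferon-stimulated response elements. Restriction factors are among the genes induced in this way, and their protein products act at different steps. MX proteins, TRIM5 and the APOBEC3 deaminases act on incoming or newly made viral genomes and capsids, SAMHD1 and RSAD2 act on the nucleotide supply, ISG20 degrades RNA, and BST2 holds finished particles at the cell surface.

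The promoter sequences are shown first because interferon-activated factors are known to act through short elements in promoters. RefSeq promoter windows (build GRCh38.p14, 300 bases each, of which 250 lie upstream of the annotated start) were found for 6 of the 10 members: MX1 with 3 windows, RSAD2 with 2, and BST2, SAMHD1, ISG20 and TRIM5 with 1 each. MX2, TRIM22, APOBEC3F and APOBEC3G were not matched. The 250 upstream bases of 5 windows are printed 5′ to 3′ on the strand of the gene. Capitals mark matches, on either strand, to GAAANNGAA (the core of the interferon-stimulated response element) or TTCNNNGAA (the gamma-activated site), and overlapping matches run together.
BST2, chr19:17405631-17405880, minus strand: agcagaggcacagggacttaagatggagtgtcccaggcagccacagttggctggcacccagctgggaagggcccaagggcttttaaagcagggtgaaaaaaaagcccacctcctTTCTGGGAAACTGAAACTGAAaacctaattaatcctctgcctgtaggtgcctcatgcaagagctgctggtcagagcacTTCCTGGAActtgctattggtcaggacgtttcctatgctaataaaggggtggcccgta
RSAD2, chr2:6877527-6877776, plus strand: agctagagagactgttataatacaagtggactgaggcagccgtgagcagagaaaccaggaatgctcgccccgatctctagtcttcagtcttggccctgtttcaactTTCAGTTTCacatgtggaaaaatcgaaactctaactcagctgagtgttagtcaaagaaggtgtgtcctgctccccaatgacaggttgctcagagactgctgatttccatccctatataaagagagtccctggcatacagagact
ISG20, chr15:88638766-88639015, plus strand: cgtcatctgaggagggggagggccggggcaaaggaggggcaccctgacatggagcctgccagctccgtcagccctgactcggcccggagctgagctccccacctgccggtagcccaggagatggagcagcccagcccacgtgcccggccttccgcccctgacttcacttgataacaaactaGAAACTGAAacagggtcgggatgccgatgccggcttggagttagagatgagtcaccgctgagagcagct
TRIM5, chr11:5685075-5685324, minus strand: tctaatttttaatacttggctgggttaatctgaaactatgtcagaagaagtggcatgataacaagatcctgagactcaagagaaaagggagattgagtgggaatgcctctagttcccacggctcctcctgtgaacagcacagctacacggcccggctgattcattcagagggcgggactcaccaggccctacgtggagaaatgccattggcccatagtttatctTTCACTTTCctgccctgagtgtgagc
SAMHD1, chr20:36951709-36951958, minus strand: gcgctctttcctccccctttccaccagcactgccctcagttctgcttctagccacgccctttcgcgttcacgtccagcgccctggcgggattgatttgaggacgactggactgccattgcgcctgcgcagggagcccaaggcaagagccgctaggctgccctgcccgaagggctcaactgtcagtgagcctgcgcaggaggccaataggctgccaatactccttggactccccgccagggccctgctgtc

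BST2 held 2 copies of GAAANNGAA, beginning 130 and 124 bases before the start, and 2 of TTCNNNGAA, beginning 136 and 58 bases before it. The first 3 of these matches overlap in 1 run of capitals. RSAD2, ISG20 and TRIM5 held 1 GAAANNGAA each in the windows printed, beginning 144, 69 and 26 bases before the start. The other RSAD2 window held 1 as well. The first MX1 window held 2 copies, both just downstream of the start, the second held none, and the third held 1 copy overlapping a TTCNNNGAA. The SAMHD1 window held neither motif. Among all 35116 windows of 300 bases, 8.11% held GAAANNGAA at least once and 0.701% at least 2 times, and 7.66% held TTCNNNGAA at least once and 0.456% at least 2 times. A match is a description of the letters and not of binding.

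**Figure D1:**
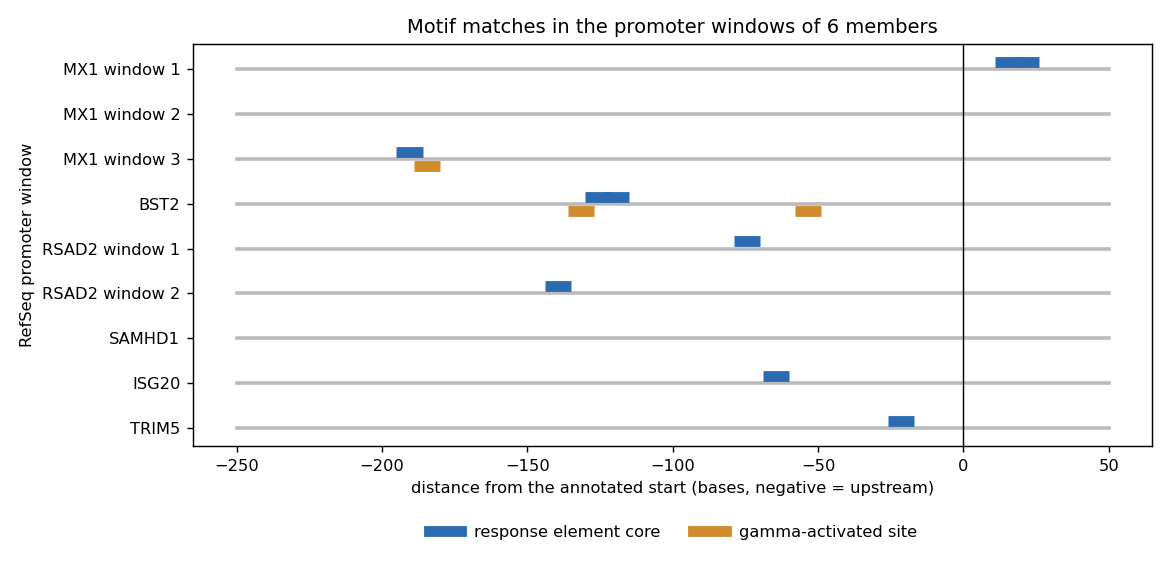
Positions of the motif matches in the 9 promoter windows of 6 members, in bases from the annotated start (x axis, negative is upstream). Each gray line is 1 window of 300 bases, blue bars are matches to the response element core and orange bars are matches to the gamma-activated site. BST2 carried 4 matches in 1 window, and the SAMHD1 window carried 0.

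Library totals ran from 16469832 to 21790869 counts. Neuroblastoma markers summed to 4549 to 5927 CPM (gene counts scaled to the library's TMM-adjusted total) in the 12 libraries and none of the 10 was at 0, whereas 5 of 10 leukocyte markers were at 0 in every library and the list summed to at most 1.496 CPM. ARID1A, the target of the hairpin, averaged 183 ± 16.4 CPM in C against 171 ± 22.1 in D, and 196 ± 5.71 CPM in I against 144 ± 9.69 in DI (SD, n = 3). Its log2 fold change for D over C was -0.09 (SE 0.11), with overlapping libraries and an adjusted p of 0.788 (edgeR quasi-likelihood test, Benjamini-Hochberg). For DI over I it was -0.44 (SE 0.11), with libraries that did not overlap and an adjusted p of 0.115 by the same test. With the replicate number as a block the latter adjusted p was 0.0111. The groups are therefore named for what the labels say was added. The libraries numbered 3 stood apart from numbers 1 and 2 in all 4 groups, so results that rest on them are given with and without them. In bulk libraries, fewer cells responding and less RNA per cell cannot be told apart.

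Most of the restriction factors were higher in cells given IFNγ. Without doxycycline, 6 of the 8 members that passed the filter on low counts were higher in I than in C at an adjusted p under 0.05, against 2.10% of all 15828 genes tested, and the other 2 (BST2 and TRIM5) had higher means that missed the threshold. With doxycycline, 5 of 8 were higher in DI than in D, against 1.67% of all genes. TRIM22, APOBEC3F and APOBEC3G passed the filter only through libraries with IFNγ, so a difference was built into their passing. Among the 5 members above the filter's level of 0.519 CPM in every library (BST2, RSAD2, SAMHD1, ISG20 and TRIM5), 3 were called in I over C and 2 in DI over D. With the replicate number as a block, all 8 were called in both comparisons, against 4.88% and 3.77% of all genes. On replicates 1 and 2 alone, 6 were called in I over C and 7 in DI over D, against 1.52% and 1.33% of 15892 genes.

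**Figure D2:**
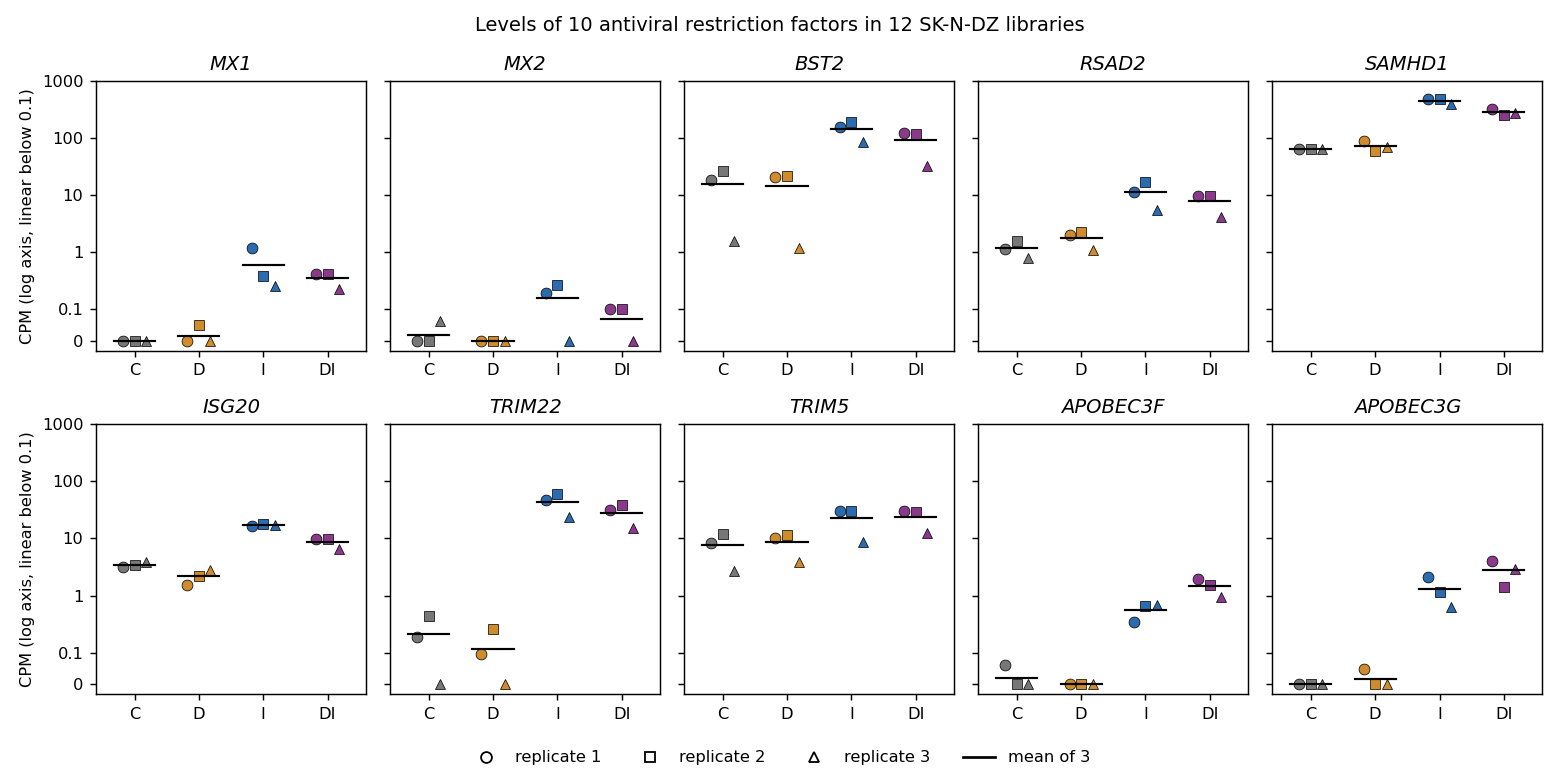
CPM of the 10 members (y axis, log scale, linear below 0.1 CPM) in the 12 libraries, by group (x axis: C, control; D, doxycycline; I, IFNγ; DI, both). Symbols give the replicate number and black lines the mean of 3 libraries. SAMHD1 sat between 59.0 and 87.4 CPM without IFNγ and between 255 and 487 CPM with it, and the triangles of BST2 lay below its other symbols in each group.

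SAMHD1 (ENSG00000101347, chr20:36889773-36951901, minus strand, GENCODE 29 on GRCh38), a hydrolase that breaks down deoxynucleoside triphosphates, had the smallest SE of the response among the 8 tested members. Its level was 65.5, 63.3 and 63.8 CPM in the C libraries and 481, 487 and 399 CPM in the I libraries. With doxycycline it was 87.4, 59.0 and 69.8 CPM in D and 330, 255 and 280 CPM in DI. The groups with and without IFNγ did not overlap in either arm, and replicate 3 was close to the others. The log2 fold change was 2.83 (SE 0.16, adjusted p = 1.31e-06, edgeR) for I over C and 2.00 (SE 0.15, adjusted p = 1.63e-05) for DI over D. Within each replicate number the level rose 7.34-, 7.70- and 6.26-fold without doxycycline. It rose 3.78-, 4.32- and 4.01-fold with doxycycline, so every fold in that arm was below every fold in the other. Of the exon bases of SAMHD1, 10.3% also lie in TLDC2 on the opposite strand, and TLDC2 had at most 10 counts in a library.

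RSAD2 (ENSG00000134321, chr2:6865806-6898239, plus strand), which encodes viperin, an enzyme that makes a chain-terminating nucleotide, was measured at 1.17, 1.59 and 0.810 CPM in C and 11.6, 17.4 and 5.61 CPM in I. In the doxycycline arm it was measured at 2.05, 2.28 and 1.10 CPM in D and 9.86, 9.74 and 4.19 CPM in DI. No library without IFNγ reached one with it, and replicate 3 was the lowest of its group in all 4. The log2 fold change was 3.26 (SE 0.51, adjusted p = 0.00430, edgeR) for I over C. For DI over D it was 2.12 (SE 0.49), which missed the threshold (adjusted p = 0.0636) and passed it with the replicate block (adjusted p = 6.14e-05), on replicates 1 and 2 alone (0.0140), by DESeq2 (0.000700), without the filter, and in 2 of the 12 fits that left out 1 library, those without replicate 3 of I or of DI. It missed in the other 10, and adjusted p over the 12 ran from 0.0297 to 0.238. Among the alternatives other than these 12, the highest adjusted p was 0.127.

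ISG20 (ENSG00000172183, chr15:88636153-88656483, plus strand), an exonuclease that degrades single-stranded RNA, was at 3.20, 3.43 and 3.80 CPM in C and 16.6, 17.8 and 17.2 CPM in I. It was at 1.53, 2.23 and 2.84 CPM in D and 9.80, 9.69 and 6.44 CPM in DI. All 4 groups were apart from each other, in the order I, DI, C and D. ISG20 rose by 2.31 on the log2 scale in I over C (SE 0.25, adjusted p = 0.000227, edgeR) and by 1.98 in DI over D (SE 0.25, adjusted p = 0.000936).

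BST2 (ENSG00000130303, chr19:17402939-17405648, minus strand), also called tetherin, anchors enveloped particles to the membrane of the cell that made them. Its level was 18.6, 26.5 and 1.56 CPM in C and 156, 194 and 86.9 CPM in I. It was 20.6, 21.5 and 1.22 CPM in D and 125, 118 and 33.0 CPM in DI. Every library with IFNγ was above every library without it, and replicate 3 was the lowest in each group by a wide margin. In C and D, replicate 3 stood at 6.90% and 5.78% of the mean of the other 2 libraries. The response was therefore unequal across numbers, at 8.37-, 7.31- and 55.8-fold without doxycycline and 6.07-, 5.50- and 27.1-fold with it. The log2 fold change was 3.22 (SE 1.00) for I over C and 2.67 (SE 0.98) for DI over D, and neither passed the edgeR test (adjusted p = 0.224 and 0.489). Both passed with the replicate block (log2 fold changes of 3.66 and 2.87, adjusted p = 0.000844 and 0.00451) and on replicates 1 and 2 alone (2.94 and 2.55, adjusted p = 0.000507 and 0.00109).

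TRIM22 and TRIM5 are neighbours on chromosome 11, and both encode tripartite motif proteins. TRIM5 binds the capsid lattice of retroviruses, and TRIM22 is a ubiquitin ligase known to limit several viruses. TRIM22 (ENSG00000132274, chr11:5689689-5737089, plus strand) was at 0.184, 0.447 and 0 CPM in C and 46.3, 59.7 and 24.0 CPM in I. With doxycycline it was at 0.095, 0.259 and 0 CPM in D and 31.1, 37.9 and 15.0 CPM in DI. The groups were far apart, and replicate 3 was again the lowest of each group. The C libraries held 12 counts in all and the I libraries 2488, a ratio of 189 after scaling (95% exact interval 108 to 366, counting error only). In the doxycycline arm the totals were 7 and 1678 counts, a ratio of 226 (109 to 562). The log2 fold changes were 7.55 (SE 0.76, adjusted p = 0.000146, edgeR) and 7.78 (SE 0.80, adjusted p = 0.000192).

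TRIM5 (ENSG00000132256, chr11:5663557-5938619, minus strand) had the smallest response among the members with counts in every library. It was at 8.36, 11.8 and 2.68 CPM in C and 30.2, 30.8 and 8.75 CPM in I. It was at 10.3, 11.4 and 3.82 CPM in D and 30.2, 29.4 and 12.4 CPM in DI. Replicate 3 was low in all 4 groups, and in I it lay below replicate 2 of C, so those groups overlapped. Within each number the level was 3.62-, 2.61- and 3.27-fold higher in I than in C. The log2 fold change was 1.60 (SE 0.63, adjusted p = 0.465, edgeR) for I over C and 1.49 (SE 0.63, adjusted p = 0.690) for DI over D. It passed in both arms with the replicate block (adjusted p = 8.03e-05 and 0.000125) and on replicates 1 and 2 alone (0.00973 and 0.0145). TRIM5 and TRIM22 overlap in span and share 0 exon bases.

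APOBEC3F and APOBEC3G are cytidine deaminases that mutate retroviral DNA as it is copied. They are close paralogs that lie near each other on chromosome 22 (chr22:39040604-39053910 and chr22:39077005-39087743, both on the plus strand), and how reads matching both were counted is not given in the sources used here, so the division between them is uncertain. APOBEC3F (ENSG00000128394) had 1 count over the C libraries and 0 over the D libraries. It had 7, 12 and 13 counts in I and 38, 30 and 21 in DI, which is 0.346, 0.654 and 0.681 CPM and 1.95, 1.54 and 0.946 CPM. All 6 libraries with IFNγ were above all 6 without it. The ratio of I to C was 29.1 (95% exact interval 4.87 to 1186), and DI was 27.9-fold above a floor of 3 counts over D. Both comparisons passed (adjusted p = 0.0377 and 0.00383, edgeR), the first only narrowly, since it missed in 9 of the 12 fits that left out 1 library, those without a C, an I or a DI library (highest adjusted p 0.158), and on replicates 1 and 2 alone (0.317).

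APOBEC3G (ENSG00000239713) had 0 counts over the C libraries and 1 over the D libraries. It had 43, 21 and 12 counts in I and 79, 28 and 66 in DI, which is 2.13, 1.15 and 0.629 CPM and 4.05, 1.44 and 2.97 CPM. The groups with IFNγ were apart from those without. I was 23.1-fold above a floor of 3 counts over C, and the ratio of DI to D was 163 (28.8 to 6466). The adjusted p was 0.00709 and 0.00495 by edgeR, and 0.0735 and 0.0725 on replicates 1 and 2 alone. With only the C and I libraries in the fit it was 0.0584 for I over C.

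MX1 and MX2 are dynamin-like GTPases that trap viral nucleoproteins and capsids. Both stayed near the limit of detection and did not pass the filter, so the fit across genes gave them no test. MX1 (ENSG00000157601, chr21:41420304-41459214, plus strand) had 0 counts in every C library, where 3 counts would be 0.149 to 0.187 CPM. It was at 0, 0.052 and 0 CPM in D, 1.19, 0.382 and 0.262 CPM in I, and 0.411, 0.410 and 0.225 CPM in DI. These levels are 36 counts over I and 21 over DI. I was 10.9-fold above a floor of 3 counts over C, and the ratio of DI to D was 19.8 (3.18 to 817). The libraries with IFNγ did not overlap with those without, for which an exact two-sided permutation test of 3 against 3 gave p = 0.1, the smallest it can give. Fitted without the filter, the adjusted p for I over C was 0.0347 by edgeR, and it was 0.00926 by DESeq2. For DI over D these were 0.311 and 0.246.

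MX2 (ENSG00000183486, chr21:41361943-41409390, plus strand) was at 0.198, 0.273 and 0 CPM in I and 0.103, 0.103 and 0 CPM in DI. It had 1 count over C and 0 over D, against 9 over I and 4 over DI. Replicate 3 had 0 counts in both groups with IFNγ, so groups overlapped. The ratio of I to C was 8.19 with an interval of 1.14 to 359. Set against a floor of 3 counts over D, the 4 counts of DI gave a ratio of 1.25. That ratio leaves out the counting error of the 4 counts, so it is not a lower limit. MX2 is therefore reported as values only.

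Levels per kilobase were divided by the length of all annotated exons of a gene joined, not of 1 transcript. By this measure BST2 was the most abundant member in I (130 ± 48.5 CPM per kb, SD, n = 3). Next in order were SAMHD1 (40.5 ± 4.35), TRIM22 (7.20 ± 2.99), TRIM5 (4.84 ± 2.62), RSAD2 (2.38 ± 1.22) and ISG20 (2.34 ± 0.0822). APOBEC3G, APOBEC3F, MX1 and MX2 followed at 0.239, 0.173, 0.0709 and 0.0120. In C the order was BST2 (13.9 ± 11.4), SAMHD1 (5.70 ± 0.102), TRIM5 (1.59 ± 0.960), ISG20 (0.472 ± 0.0415) and RSAD2 (0.246 ± 0.0806), with the other 5 below 0.04. TRIM22 thus ranked below RSAD2 and ISG20 in level in C and above both in I. The SDs of BST2 and SAMHD1 per kb do not separate them in C. The joined exons were 1.12 kb for BST2 and 11.3 kb for SAMHD1, so the order depends on the annotation. In CPM without this division, SAMHD1 (456) was above BST2 (146) in I.

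No member passed the test for doxycycline alone. Of the 8 tested, 0 were called in D over C by edgeR, by DESeq2 or with the replicate block, against 1.23% of all genes by edgeR, 4.77% by DESeq2 and 13.9% with the block. At an unadjusted p under 0.05 there was 1, ISG20. Its level was 3.47 ± 0.306 CPM in C and 2.20 ± 0.657 in D (SD, n = 3), and all D libraries lay below all C libraries, but the log2 fold change of -0.66 (SE 0.25) had an adjusted p of 0.244. SAMHD1 averaged 64.2 ± 1.15 CPM in C and 72.1 ± 14.3 in D, BST2 15.6 ± 12.8 and 14.4 ± 11.5, RSAD2 1.19 ± 0.390 and 1.81 ± 0.624, and TRIM5 7.62 ± 4.61 and 8.50 ± 4.10.

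Under IFNγ, the members split by direction between DI and I. I and DI are also the treated sides of the 2 comparisons above, so the values share libraries. By edgeR, 0 of 8 members were called, against 0.670% of all genes, with 3 at an unadjusted p under 0.05. With the replicate block 2 were lower in DI, SAMHD1 and ISG20, against 6.62% of all genes lower, and the same 2 were called by DESeq2, against 2.21% of 14112 genes lower. On replicates 1 and 2 alone 0 were called, against 0.0126% of genes called in either direction.

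SAMHD1 averaged 456 ± 49.0 CPM in I and 288 ± 38.3 in DI (SD, n = 3), and the groups did not overlap. DI stood at 68.7%, 52.4% and 70.1% of I in numbers 1 to 3. The log2 fold change was -0.66 (SE 0.15), with an adjusted p of 0.0809 by edgeR, 0.00497 with the replicate block and 0.00374 by DESeq2. ISG20 averaged 17.2 ± 0.605 CPM in I and 8.65 ± 1.91 in DI, also without overlap, and DI stood at 59.0%, 54.3% and 37.5% of I. Its log2 fold change was -0.99 (SE 0.24), with an adjusted p of 0.0999 by edgeR, 0.0177 with the block and 0.00217 by DESeq2.

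BST2, RSAD2 and TRIM22 had lower means in DI, at 63.3%, 68.8% and 64.6% of I, but their libraries overlapped. TRIM22 stood at 67.2%, 63.5% and 62.5% of I within the 3 numbers, with an adjusted p of 0.710 by edgeR and 0.0551 with the block. BST2 stood at 80.4%, 60.9% and 38.0%, and RSAD2 at 85.1%, 56.0% and 74.7%. TRIM5 had means of 23.3 ± 12.6 CPM in I and 24.0 ± 10.1 in DI with a log2 fold change of 0.04 (SE 0.61, adjusted p = 0.991, edgeR), an error that leaves room for sizeable differences. APOBEC3F and APOBEC3G had higher means in DI. APOBEC3F was at 0.561 ± 0.186 CPM in I and 1.48 ± 0.505 in DI without overlap, and at 563%, 235% and 139% of I in the 3 numbers. APOBEC3G was at 1.30 ± 0.761 and 2.82 ± 1.32 CPM, with overlap. Neither passed (log2 fold changes of 1.39 and 1.11, SE 0.60 and 0.62, adjusted p = 0.399 and 0.543, edgeR).

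**Figure D3:**
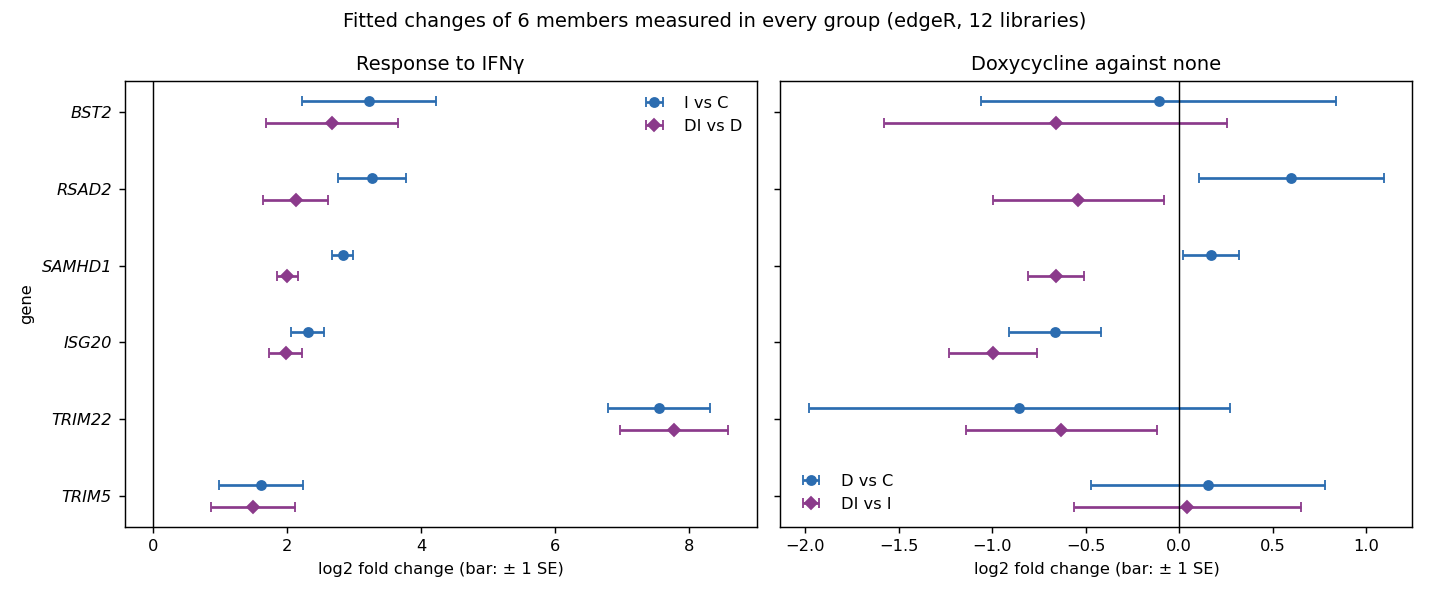
Log2 fold changes with SE (x axis) of the 6 members with counts in every group, fitted by edgeR over 12 libraries. The left panel gives the response to IFNγ without (I vs C) and with doxycycline (DI vs D), and the right panel gives doxycycline against none without (D vs C) and with IFNγ (DI vs I). SAMHD1 is at 2.83 and 2.00 on the left and has narrow bars, and the bars of BST2 are the widest on the left.

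Whether the response to IFNγ differed between the arms was tested directly as the difference of the 2 log2 fold changes. By edgeR 0 of 8 members were called, as were 0 of all genes (0% called), with 1 member and 99 genes at an unadjusted p under 0.05 and 1 gene called by DESeq2, which was no member. That member was SAMHD1, at -0.83 (SE 0.21, unadjusted p = 0.00233, adjusted p = 1). With the replicate number as a block within each arm, SAMHD1 was the only member called, at -0.81 (SE 0.096, adjusted p = 0.00174), where 0.0253% of all genes were called. With 1 block for both arms its adjusted p was 0.796. RSAD2 differed by -1.14 in the same direction without passing (adjusted p = 0.382 with the block within each arm). The differences for the other members missed the threshold in each fit named here. The direction was not particular to SAMHD1. Of 26 other antiviral effectors tested (list below), 21 had a negative difference and 5 a positive one (median -0.40), and 0 were called by edgeR. Genes at 0 CPM without IFNγ, such as DDX60, enter these counts. IFIT2 and IFIT1 differed by -2.05 (SE 0.39) and -1.15 (SE 0.38) in the fit without a block.

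Several members differed by replicate number. In the blocked fit, 4 of 8 members differed by replicate number (TRIM5, adjusted p = 2.98e-05, RSAD2, 0.000687, TRIM22, 0.00158, and BST2, 0.00362, edgeR), close to the 44.0% of all genes called for it. This term was looked at after the values were seen. In I, replicate 3 stood at 49.7% of the mean of replicates 1 and 2 for BST2, 28.7% for TRIM5, 45.3% for TRIM22 and 38.7% for RSAD2. SAMHD1 and ISG20, at 82.5% and 99.8%, were not called (adjusted p = 0.0985 and 0.815). In D and DI, replicate 3 of ISG20 stood at 151% and 66.1%. After removing group means, log2 levels over the 12 libraries moved together for TRIM22 and TRIM5 (r = 0.928), RSAD2 and TRIM5 (0.928), BST2 and TRIM22 (0.927) and BST2 and TRIM5 (0.895). SAMHD1 went with APOBEC3G (0.803), while its r was 0.149 with BST2, 0.270 with TRIM5 and -0.335 with ISG20, and ISG20 and BST2 had an r of -0.342. APOBEC3G had 0 counts over C and 1 over D, and TRIM22 had 12 and 7, so the r values with these genes rest partly on counts near 0. All are descriptions over libraries that share their replicate numbers, and what the numbers stand for was not tested.

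**Figure D4:**
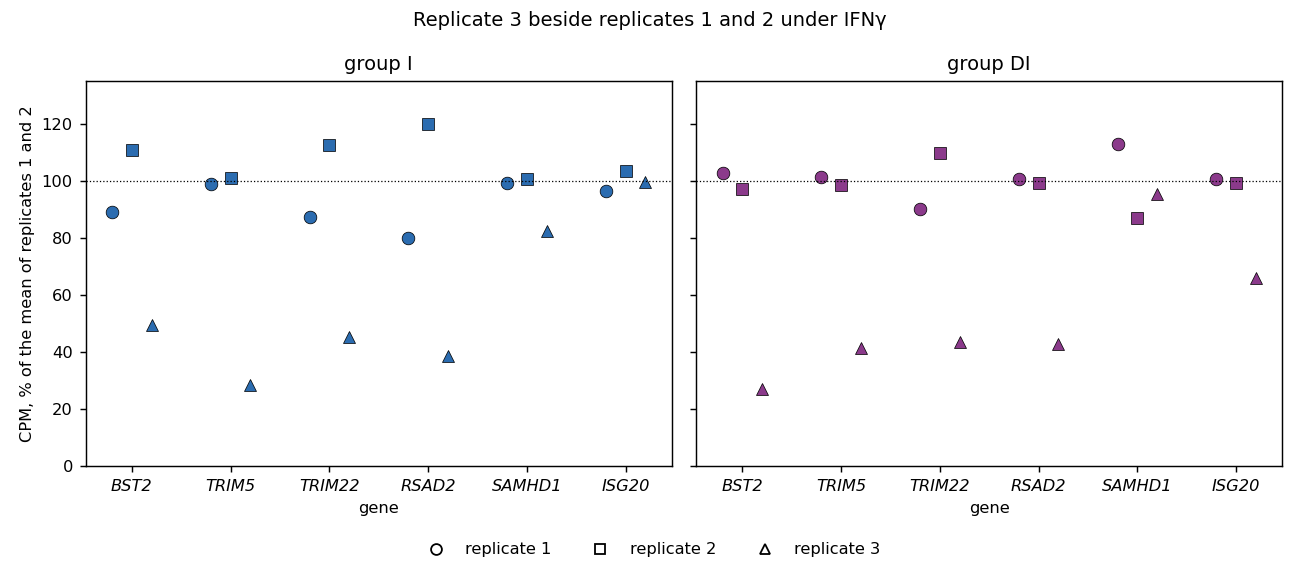
CPM of 6 members in the I (left) and DI (right) libraries, as a percent of the mean of replicates 1 and 2 of that group (y axis, dotted line at 100). Symbols give the replicate number. Replicate 3 of BST2, TRIM5, TRIM22 and RSAD2 lay between 27.1% and 49.7%. That of SAMHD1 lay at 82.5% and 95.6%, and that of ISG20 at 99.8% and 66.1%.

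The genes most like 3 of the members over the 12 libraries were read from Pearson correlations of log2 CPM, as a description. For SAMHD1 these were the interferon-induced genes IFIT2, OAS3 and IFIT1 (r = 0.988 each). For MX1 they were GBP7, ANGPTL1 and STARD8 (0.972, 0.964 and 0.963). For BST2 they were AMOT, ACSS1 and SSTR2 (0.978, 0.976 and 0.965). The 12 points share their groups, their replicate numbers and their depth.

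Relatives of the members were read from fixed lists in the same fits, where the median log2 fold change of all genes was -0.01 in I over C, DI over D and DI over I. Of 5 other APOBEC3 genes 2 were tested. Of all genes, 2.10% rose in I over C and 1.67% in DI over D. APOBEC3B was at 0 CPM in every library without IFNγ, at 1.09 ± 0.820 CPM in I and at 1.99 ± 1.07 in DI (SD, n = 3). I was 19.4-fold above a floor of 3 counts over C, and DI was 37.3-fold above such a floor over D. Both comparisons passed for APOBEC3B (adjusted p = 0.0358 and 0.0203, edgeR), but it passed the filter only through libraries with IFNγ. It was the list's 1 call in I over C, where 8 of the 12 fits that left out 1 library, and the fit to the C and I libraries alone, called 0. In DI over D, where both genes were called, 5 of those 12 fits called 0. APOBEC3C had 0.675 ± 0.562 CPM in C against 5.25 ± 2.17 in I, and 0.619 ± 0.364 CPM in D against 7.31 ± 3.06 in DI. It rose in DI over D (adjusted p = 0.0477) and not by the test in I over C (0.0961, or 0.000230 with the replicate block). As for APOBEC3F and APOBEC3G, the means of APOBEC3B and APOBEC3C were higher in DI than in I, and none of the 4 passed.

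Of 12 other antiviral TRIM genes 10 were tested. In I over C 6 rose and 0 fell, with a median log2 fold change of 2.13, and in DI over D 5 rose and 0 fell (median 1.88). Of all genes, 2.10% and 1.67% rose in these comparisons. TRIM21, an antibody receptor in the cytosol, went from 0.264 ± 0.186 CPM in C to 58.9 ± 9.25 in I (log2 fold change 7.76, SE 0.43, adjusted p = 1.24e-06, edgeR). It was at most 0.430 CPM in C, below the filter's level of 0.519 CPM, and passed the filter through libraries with IFNγ. TRIM69 rose by 2.72 (SE 0.16, adjusted p = 1.98e-06). TRIM25, the ligase that acts on the RNA sensor RIG-I, averaged 165 ± 33.2 CPM in I and 110 ± 24.4 in DI. In DI over I 0 of the 10 were called (3 were lower with the block, against 6.62% of all genes).

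Of 31 other antiviral effectors 26 were tested, and 18 rose and 0 fell in both I over C (median log2 fold change 4.13) and DI over D (median 3.20), where 2.10% and 1.67% of all genes rose. Some of these, DDX60 and IFIT3 among them, passed the filter only through libraries with IFNγ. For these a difference was built into their passing, and they enter the counts and medians. In DI over I 3 were lower and 0 higher (median -0.72), where 0.670% of all genes were called in either direction, and 12 were lower with the block, against 6.62% of all genes. Leaving out 1 library gave 0 to 4 called genes of this list, and the other alternatives gave 0 to 12. IFIT3, which binds viral RNA together with its relatives, averaged 273 ± 67.8 CPM in I and 100.5 ± 19.9 in DI (log2 fold change -1.44, SE 0.24, adjusted p = 0.0247, edgeR). DDX60, a helicase of the RNA sensing pathway, was at 0 CPM without IFNγ, 64.7 ± 5.15 in I and 26.2 ± 4.20 in DI (-1.30, adjusted p = 0.0246). IFIT2 was the other, at 55.2 ± 11.9 and 24.7 ± 3.65 CPM (-1.16, adjusted p = 0.0330). SAMHD1 and ISG20 lay in the same direction as this list's median and short of the threshold in that fit.

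Of 16 receptors, kinases and factors of interferon signaling all were tested, and 10 rose and 0 fell in I over C and in DI over D (medians 2.38 and 2.14). Of all genes, 2.10% and 1.67% rose in these comparisons. IRF1 averaged 2.14 ± 0.288 CPM in C, 411 ± 31.0 in I and 367 ± 21.9 in DI, and its log2 fold change for DI over I was -0.16 (SE 0.13, adjusted p = 0.694, edgeR). JAK2 averaged 31.0 ± 8.66 CPM in I and 19.8 ± 4.35 in DI (adjusted p = 0.325). The kinase TYK2 was the 1 gene of the list called in DI over I, and it was higher (0.60, SE 0.11, adjusted p = 0.0341). Of all genes 0.670% were called there in either direction. Leaving out 1 library gave 0 to 1 called genes of this list.

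SAMHD1 consumes deoxynucleotides and is phosphorylated by cyclin-dependent kinases, so 13 genes of that supply and those kinases were read beside it. None was called in I over C, DI over D, D over C or DI over I by edgeR. With the replicate block 1 was lower in I over C, 6 in D over C and 3 in DI over I, where 1.14%, 7.67% and 6.62% of all genes were lower. DCK, which salvages deoxynucleosides, averaged 50.1 ± 3.27 CPM in C and 31.0 ± 6.44 in D (adjusted p = 0.0711, or 0.00381 with the block) and 47.7 ± 3.18 in I and 29.5 ± 4.13 in DI (0.0924, or 0.00511 with the block). CCNA2, a cyclin partner of those kinases, was at 231 ± 17.4 CPM in I and 183 ± 19.4 in DI (adjusted p = 0.278, or 0.0362). CDK2 was at 58.3 ± 8.54 CPM in C and 47.6 ± 6.12 in I (adjusted p = 0.728, or 0.0416), and DTYMK at 115 ± 15.8 and 95.1 ± 10.2 (0.900, or 0.292).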

How the data were processed

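RNA-seq of 12 libraries was deposited by the authors as raw counts per gene, with whole numbers for 43769 genes. The aligner, counter, annotation and strand setting are not given in the sources used here. All gene IDs were in GENCODE 29 (GRCh38), from which positions and exon lengths were taken. The tool named in the submitters' processing notes is DESeq2. The authors' comparison tables hold log2 fold changes and p-values and were not used, nor were 18 columns of libraries outside the labels.

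Counts were scaled by TMM, filtered with filterByExpr (minimum count 10) and tested for 15828 genes in 1 model of 4 groups by edgeR 4.0.16 (quasi-likelihood, two-sided, Benjamini-Hochberg over all genes, called under 0.05) in R 4.3.3. Log2 levels used a prior count of 1. SEs were derived from the F statistic. Alternatives were DESeq2 1.42.0, other scalings, no filter, a replicate block, only the groups compared, and leaving out each library. The script was tested on simulated data. Replicate numbers were taken to pair libraries. After removing group means, the 18 same-numbered pairs had residual correlations of 0.342 to 0.790, and the 48 other pairs -0.727 to 0.128. The 48 include pairs within a group, which removing the group mean pushes below 0, so part of this gap is built in. Intervals cover counting error only. A floor of 3 counts over the group stood in for 0 counts, and folds above it leave out counting error in the higher group.

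Named were all members, the 2 genes of each list with the smallest adjusted p in I over C and the 2 in DI over I, the 3 genes most like MX1, BST2 and SAMHD1, and ARID1A. A gene that this rule names is not reported here. Members and lists were chosen with earlier results of these data known.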

Additional observations from a re-analysis of the deposited data

Results flagged for a closer look

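For SAMHD1, the response to IFNγ differed with doxycycline by a log2 difference of -0.814 in the fit with the replicate number as a block within each arm (edgeR, adjusted p = 0.00174). The response was smaller with doxycycline in 3 of 3 replicate numbers. Its direction was shared by 21 of 26 other antiviral effectors tested, while 5 went the other way and 0 were called by edgeR without the block. The difference did not pass without the block (adjusted p = 1) or with 1 block for both arms (adjusted p = 0.796), and its cause was not tested. In bulk counts from 1 clone it cannot be told apart from effects of doxycycline itself.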

How the results depend on the processing

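The count of called members moved by over 1.5 times, or from 0, with 3 choices. It was 8 with the replicate block for DI over D (5 without), 2 with the block and 2 by DESeq2 for DI over I (0 by edgeR without the block), and 1 with the block within each arm for the difference of responses (0 without). For I over C, 6 in the fit reported, it was 4 with the C and I libraries alone (APOBEC3F was filtered out and APOBEC3G missed), 5 at an adjusted p under 0.01, 7 by DESeq2 or without the filter and 8 with the block. The pairing by replicate number changed no other count of members by over 1.5 times. Leaving out 1 library gave 5 to 6 called for I over C and 5 to 6 for DI over D, and 0 to 0 for D over C, for DI over I and for the difference of responses. The 4 members called for the replicate number stayed within 1.5 times under the 3 alternatives, chosen after seeing the data, as did the counts on replicates 1 and 2 alone.

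No call changed direction. Of uncalled log2 fold changes, some crossed 0 when 1 library was left out: BST2 (-0.64 to 0.52), TRIM22 (-1.98 to 0.35) and TRIM5 (-0.25 to 0.62) in D over C, TRIM5 in DI over I (-0.33 to 0.36), and, for the difference of responses, TRIM22 (-0.97 to 1.35), TRIM5 (-0.56 to 0.29) and APOBEC3G (-1.19 to 1.11). DESeq2 turned the last to 0.29, and replicates 1 and 2 alone turned TRIM5 in DI over I to -0.016 and the ISG20 difference to 0.025. Scaling by library size alone moved the median of all genes by 0.09 in D over C and in DI over I. The depth does not resolve MX1 and MX2 between DI and I, nor any member at 0 to 1 counts in D over C.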
